A study of Mus musculus with 14 samples.

Results

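The nuclear genes that encode the subunits of the mitochondrial respiratory chain and ATP synthase were followed in mouse lung with and without the tetraspanins CD151 and CD9. Members were taken by symbol: names that begin with Ndufa, Ndufb, Ndufc, Ndufs, Ndufv, Uqcr, the Cox and Atp5 subunit stems, and Sdha to Sdhd, Cyc1 and Cycs, without the Ndufaf assembly factors. This gave 84 genes, measured by 174 probe sets, of the 18193 genes that the array's annotation names by a probe set with 1 symbol. Each gene was represented by its brightest probe set, and 82 of the 84 passed the filter on low signal (a mean log2 level of at least 6.12, a signal of about 53.4), as did 12985 genes in all. The 2 that did not were Cox7b2, with signals from 8.78 to 11.1, and Ndufb4, with signals from 13.7 to 21.8. By symbol, 35 of the tested members belonged to complex I, 4 to complex II, 9 to complex III, 16 to complex IV and 17 to complex V (ATP synthase), and Cycs encodes cytochrome c.

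The 3 groups were wild-type lung (4 arrays, numbered 1, 3, 4 and 5), lung of CD151 knockout animals (CD151KO, 5 arrays) and lung of CD9 knockout animals (CD9KO, 5 arrays). All were on the C57BL/6 background, were 20 weeks of age and carried no treatment in the labels, which do not describe how the alleles were made. Tetraspanins such as CD151 and CD9 span the plasma membrane and gather integrins and other partners there; the study's title concerns the part of CD151 in protecting the lung epithelium from fibrosis. Whole lungs were homogenised and their total RNA was hybridised to Affymetrix expression arrays, 1 array per sample. The labels leave it unsaid whether each array stands for its own animal, and the p-values therefore reflect only how far these samples spread, which may be technical. In a whole-lung sample, fewer cells of a type and less RNA per cell cannot be told apart.

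Oxidative phosphorylation moves electrons from NADH through complex I, or from succinate through complex II, by way of ubiquinone to complex III, then through cytochrome c to complex IV, where oxygen is reduced. Complexes I, III and IV pump protons across the inner mitochondrial membrane, and complex V lets them back to make ATP. Each complex has catalytic core subunits and smaller accessory or supernumerary subunits; complex II apart, part of the core is encoded by mitochondrial DNA.

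The targeted genes followed the labels. The Cd151 signal was 1058 ± 17.7 (SD, n = 5) in CD151KO, against 5330 ± 372 (n = 4) in wild type and 4987 ± 149 (n = 5) in CD9KO; the Cd9 signal was 667 ± 52.3 in CD9KO, against 8096 ± 69.4 in wild type and 8232 ± 265 in CD151KO. The median signal of an array lay between 83.9 and 85.9. The lung label held: Sftpc, the surfactant protein C gene of alveolar type 2 cells, had signals from 28308 to 29212, and Scgb1a1 of club cells from 28414 to 29667. On the first principal component of all genes, with 37.5% of the variance, the arrays numbered 1 of wild type (−18.5) and of CD151KO (−17.2) stood apart from the others (−8.01 to 13.4). Several results, though not all, that moved without 1 or both of these arrays are given with that value. All CD9KO arrays (7.23 to 13.4) lay above every wild-type array (at most 1.48) and every CD151KO array (at most 2.46) on this component. Its part in the differences of the members was not tested. Signals of the members were high: all 3 group means exceeded 1000 for 70 of the 82, and the lowest group mean was 84.3.

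A subset of oxidative phosphorylation genes had higher signals in CD151KO lung than in CD9KO lung, by a few percent, and against wild type almost none passed the test. In CD151KO against CD9KO, 14 of the 82 tested members (17.1%) passed the test, all of them higher in CD151KO, by 7.19% to 14.7%; 10.1% of all genes tested passed in either direction and 5.99% passed as higher. In CD9KO against wild type, 1 member passed, Cox6b1, as lower, against 5.51% of all genes in either direction and 2.63% as lower. In CD151KO against wild type no member passed, against 0.778% of all genes. The test was limma's moderated test on log2(signal + 16) over all 14 arrays, two-sided; p-values were adjusted by Benjamini-Hochberg across the 12985 genes, and an adjusted p under 0.05 counted as passing. Fold changes are on that log2(signal + 16) scale, which slightly understates the change of dim genes.

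The shift ran through most of the set. The median log2 difference over the 82 members was 0.072 for CD151KO minus CD9KO, with 73 members above 0 and 9 below, where the median of all genes was 0.002 and 50.6% of genes lay above 0. For CD9KO minus wild type the median was −0.063, with 64 members below 0 and 18 above, where the median of all genes was 0.004 and 51.2% of genes lay above 0. For CD151KO minus wild type it was 0.017, with 56 above 0, where the median of all genes was 0.008 and 54% lay above 0. Without the wild-type array number 1 the median of CD9KO minus wild type was −0.033 and that of CD151KO minus wild type was 0.043. The last 2 comparisons share the wild-type arrays and the first shares its arrays with each, so the medians are 3 views of the same samples. CD9KO had the lowest of the 3 group means for 62 of the 82 members and the highest for 7.

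**Figure D1:**
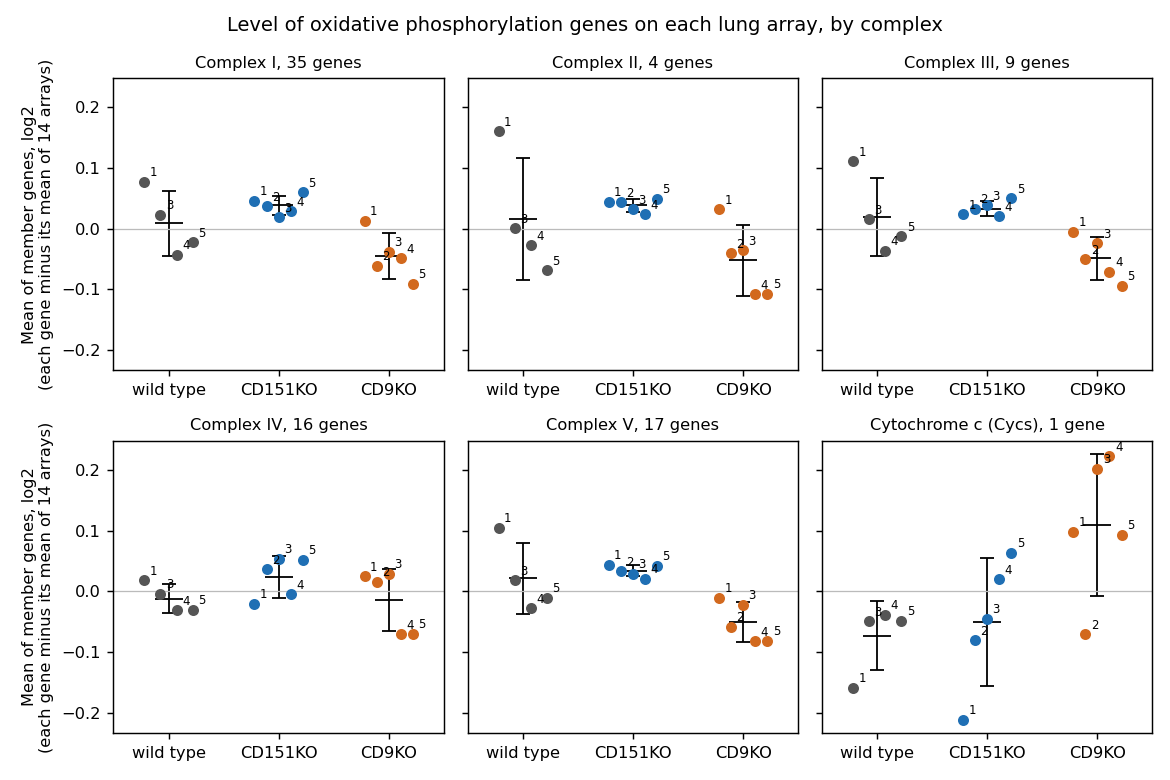
Mean log2 level of the member genes of each complex on each array, after each gene's mean over the 14 arrays was subtracted (y axis, log2 units), for the 3 groups (x axis). Points are arrays, labelled by replicate number, and bars give the mean and SD; over all members CD151KO arrays averaged 0.033 ± 0.013 and CD9KO arrays −0.039 ± 0.037, while Cycs runs the other way.

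Array by array, the level of the set separated the knockouts from each other but neither from wild type. With each gene centred on its mean over the 14 arrays, the average over all members was 0.076, 0.014, −0.036 and −0.023 on the wild-type arrays 1, 3, 4 and 5. It was 0.027, 0.035, 0.030, 0.019 and 0.053 on the CD151KO arrays, and 0.010, −0.043, −0.017, −0.062 and −0.083 on the CD9KO arrays. Every CD151KO array thus lay above every CD9KO array, whereas the wild-type arrays spanned both groups. On the 5 CD151KO arrays, 58 to 73 members exceeded their own median over the 14 arrays; on the CD9KO arrays it was 43, 11, 25, 14 and 9, and on the wild-type arrays 61, 58, 10 and 27. The wild-type array number 1 held the highest signal of all 14 arrays for 40 members, and CD9KO array number 5 the lowest for 27.

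No complex stood out by its median. The median log2 differences of CD151KO minus CD9KO were 0.075 for complex I, 0.10 for complex II, 0.063 for complex III, 0.054 for complex IV and 0.070 for complex V. For CD9KO minus wild type they were −0.062, −0.090, −0.052, −0.032 and −0.071, and for CD151KO minus wild type 0.019, 0.015, 0.018, 0.018 and 0.015. Between the knockouts, 4 genes of complex I passed, 3 of complex III, 3 of complex IV and 4 of complex V, and no gene of complex II by limma, where 3 of 4 had an unadjusted p under 0.05; 47.6% of members and 27.6% of all genes reached that level. All 9 members of complex III and 16 of 17 members of complex V had a CD9KO mean below the wild-type mean.

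**Figure D2:**
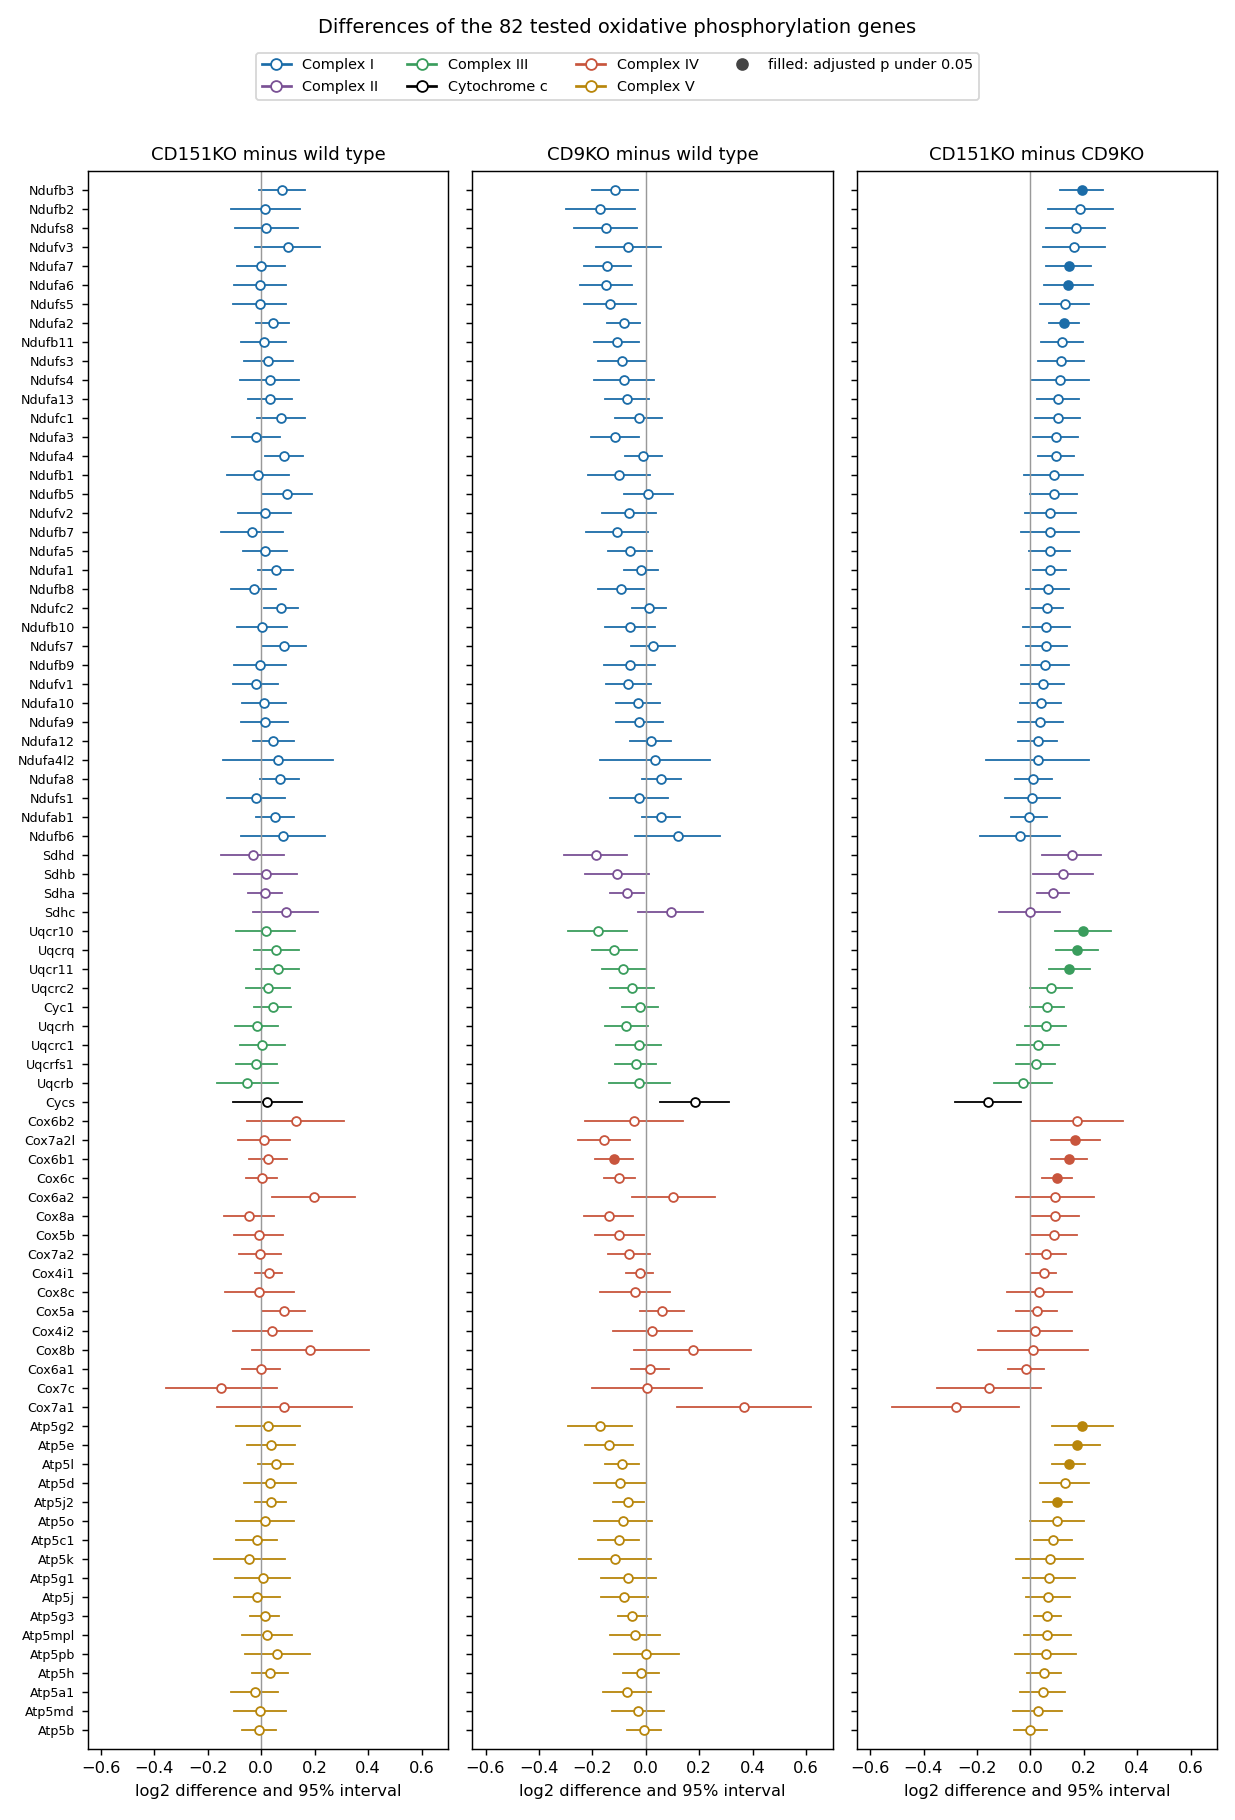
Log2 difference of each of the 82 tested genes (points) with its 95% interval (lines), in the 3 comparisons, ordered by complex; filled points passed at an adjusted p under 0.05. The right panel holds 14 filled points, all above 0, the middle panel 1, below 0, and the left panel none.

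Among the complex I genes, Ndufb3, Ndufa2, Ndufa6 and Ndufa7 were higher in CD151KO than in CD9KO; all encode accessory subunits of the NADH dehydrogenase. Ndufb3 had signals of 1889, 1743, 1645 and 1649 in wild type, 1868, 1830, 1791, 1835 and 1803 in CD151KO, and 1627, 1640, 1606, 1586 and 1526 in CD9KO. All 5 CD9KO arrays fell below every array of the other groups, and the wild-type arrays overlapped CD151KO. The difference between the knockouts was 14.2% (log2 0.19, SE 0.04; limma adjusted p = 0.0074); CD9KO minus wild type was −7.6% (limma adjusted p = 0.093). Ndufa2 had signals of 2303, 2339, 2195 and 2255 in wild type, 2329, 2402, 2325, 2312 and 2337 in CD151KO, and 2181, 2114, 2186, 2138 and 2101 in CD9KO. Again no CD9KO array reached the lowest array of either other group, and the difference between the knockouts was 9.13% (log2 0.13, SE 0.03; limma adjusted p = 0.010).

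Ndufa7 and Ndufa6 differed between the knockouts by 10.4% each, with limma adjusted p of 0.033 and 0.0486. For Ndufa7 the wild-type arrays had signals of 4459, 3921, 3844 and 3923, the CD151KO arrays 4160, 4057, 3998, 3989 and 3932, and the CD9KO arrays 3740, 3811, 3507, 3574 and 3603. The wild-type array number 1 was far above the others of its group, and the CD9KO arrays again lay below all the rest. The other 4 probe sets of Ndufa7 had differences from 0.09 to 0.13 on the log2 scale, in the same direction, but the call was lost without CD151KO array 1, 2, 3 or 4 or CD9KO array 3, 4 or 5 (0.0502 to 0.083) and with quantile normalization (0.053). For Ndufa6 the call rested on most single arrays: leaving out any array of either knockout, or wild-type number 4 or 5, gave adjusted p from 0.053 to 0.11, and so did quantile normalization, median centring, no filter and no trend (0.058 to 0.062). Other tested genes of complex I passed in no comparison, except under some alternatives such as averaged probe sets. Ndufa4, for example, passed between the knockouts without wild-type array 1 (limma adjusted p = 0.041) or CD9KO array 1 (0.043).

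Complex II, succinate dehydrogenase, links the citric acid cycle to the chain and had no passing gene. Sdhd, a membrane anchor subunit, came nearest: its signals were 1748, 1501, 1483 and 1392 in wild type, 1475, 1520, 1434, 1509 and 1518 in CD151KO, and 1347, 1411, 1388, 1270 and 1278 in CD9KO. The knockouts did not overlap, while 1 wild-type array lay within the CD9KO range. CD151KO minus CD9KO was 0.16 on the log2 scale (SE 0.05; limma adjusted p = 0.069, and 0.014 without wild-type array number 1) and CD9KO minus wild type −0.19 (SE 0.05; limma adjusted p = 0.056, and 0.030 without wild-type array number 5). Sdha, the flavoprotein, had 2586 ± 27.0 in CD151KO and 2439 ± 78.0 in CD9KO (limma adjusted p = 0.067), and also passed without wild-type array number 1 (0.046) or CD9KO array number 1 (0.037). Sdhc, the other anchor, had 816 ± 18 and 819 ± 62.1, a log2 difference whose 95% interval ran from −0.12 to 0.11.

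The 3 small accessory subunits of complex III, the cytochrome bc1 complex, that passed between the knockouts were Uqcr10, Uqcrq and Uqcr11. Uqcr10 had the largest difference of the 14 passing members, 14.7% (log2 0.20, SE 0.05; limma adjusted p = 0.021). Its signals were 2162, 1930, 1826 and 1933 in wild type, 2020, 1959, 2082, 1902 and 1957 in CD151KO, and 1825, 1761, 1808, 1577 and 1680 in CD9KO. The highest CD9KO array was just under the lowest wild-type array, and the adjusted p was 0.051 to 0.056 without CD151KO array 1 or 3 or CD9KO array 5, and 0.067 with the mean of its probe sets. Uqcrq had 1527, 1548, 1510 and 1495 in wild type, 1542, 1618, 1544, 1579 and 1628 in CD151KO, and 1493, 1458, 1376, 1389 and 1291 in CD9KO. CD9KO was lowest throughout, narrowly so against wild type, and the knockouts differed by 12.9% (log2 0.17, SE 0.04; limma adjusted p = 0.011); with the mean of its probe sets the log2 difference was 0.05 and the call was lost (0.30). Uqcr11 differed by 10.7% (limma adjusted p = 0.019), from 2348 to 2455 in CD151KO and from 2008 to 2333 in CD9KO.

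In complex IV, cytochrome c oxidase, Cox6b1, Cox6c and Cox7a2l passed between the knockouts. Cox6b1, a subunit on the intermembrane side, had signals of 5839, 5765, 5583 and 5813 in wild type, 6024, 5844, 5766, 5803 and 5808 in CD151KO, and 5529, 5507, 5333, 5165 and 4950 in CD9KO. Its CD9KO arrays lay below all others, and the CD151KO level was 10.5% above that of CD9KO (log2 0.14, SE 0.03; limma adjusted p = 0.012). It was also the only member to pass between CD9KO and wild type, where it was lower by 7.92% (log2 −0.12, SE 0.03; limma adjusted p = 0.0489, from 0.025 to 0.11 over the alternatives). That call held in few settings: it was lost without any of the wild-type arrays (0.053 to 0.11), without CD9KO array 3, 4 or 5 (0.077 to 0.10) and without CD151KO array 2, 3, 4 or 5 (0.056 to 0.065), and also with quantile normalization, median centring, no filter, the mean of its probe sets, only the compared groups or no trend (0.052 to 0.094).

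Cox6c had 6069 ± 199 in CD9KO, against 6504 ± 90.2 in CD151KO and 6498 ± 109 in wild type, so the knockouts differed by 7.19% (log2 0.10, SE 0.03; limma adjusted p = 0.027). Its second probe set gave −0.05, the opposite direction, and the call was lost without CD151KO array 1 or 2 or CD9KO array 3, 4 or 5 (0.056 to 0.065), with no trend (0.060) and with the mean of both probe sets (log2 0.03; 0.61). Cox7a2l had 2885 ± 134 in CD151KO and 2566 ± 81.0 in CD9KO (12.3%, limma adjusted p = 0.024). Both of its other probe sets ran the same way (0.17 and 0.22). Without each of those same arrays the adjusted p of Cox7a2l was 0.053 to 0.059. Cox6a1 and Cox4i1, among the ubiquitous subunits, had log2 differences between the knockouts of −0.02 (95% interval −0.08 to 0.05) and 0.05 (0.00 to 0.10). The other probe set of Cox6a1, also bright, gave 0.11 between the knockouts and −0.11 for CD9KO minus wild type. By the brightest probe sets complex IV was mixed: 13 of its 16 tested genes were above 0 and 3 below.

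Among the ATP synthase genes, Atp5l, Atp5e, Atp5g2 and Atp5j2 were higher in CD151KO than in CD9KO. Atp5e encodes the epsilon subunit of the central stalk. Its signals were 3047, 2694, 2564 and 2674 in wild type, 2808, 2862, 2736, 2837 and 2808 in CD151KO, and 2468, 2465, 2601, 2467 and 2442 in CD9KO. Apart from array number 3, the CD9KO arrays lay close to each other and below the rest, and the knockouts differed by 12.9% (log2 0.17, SE 0.04; limma adjusted p = 0.014). Atp5l, the membrane subunit g that takes part in dimer formation, had 3574, 3849, 3820 and 3854 in wild type, 3858, 3997, 3851, 4001 and 3876 in CD151KO, and 3660, 3593, 3491, 3530 and 3454 in CD9KO. Here the wild-type array number 1 fell among the CD9KO arrays while the other wild-type arrays sat with CD151KO; the knockouts differed by 10.4% (log2 0.14, SE 0.03; limma adjusted p = 0.0081), and CD9KO minus wild type gave an adjusted p of 0.086, or 0.048 without that array.

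Atp5g2, which with sister genes encodes the proton-carrying subunit c of the rotor, had 2496 ± 91.9 in CD151KO and 2180 ± 125 in CD9KO (14.5%; limma adjusted p = 0.032, and 0.0503 to 0.087 without CD151KO array 1, 2 or 3 or CD9KO array 3, 4 or 5). With the mean of its probe sets the log2 difference of Atp5g2 fell from 0.19 to 0.04 (limma adjusted p = 0.37). Atp5j2, the membrane subunit f, had 5546 ± 36.1 and 5173 ± 152 (7.23%; limma adjusted p = 0.025, and 0.053 to 0.064 without CD151KO array 1 or 2 or CD9KO array 4 or 5), while its other 2 probe sets gave log2 differences of −0.07 and 0.14; the mean of the 3 gave 0.06 (0.23), and the call was also lost with no trend (0.056). Over all 46 members with more than 1 probe set above the filter, 75 further probe sets were measured, and 58 of them had a CD151KO mean above the CD9KO mean.

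**Figure D3:**
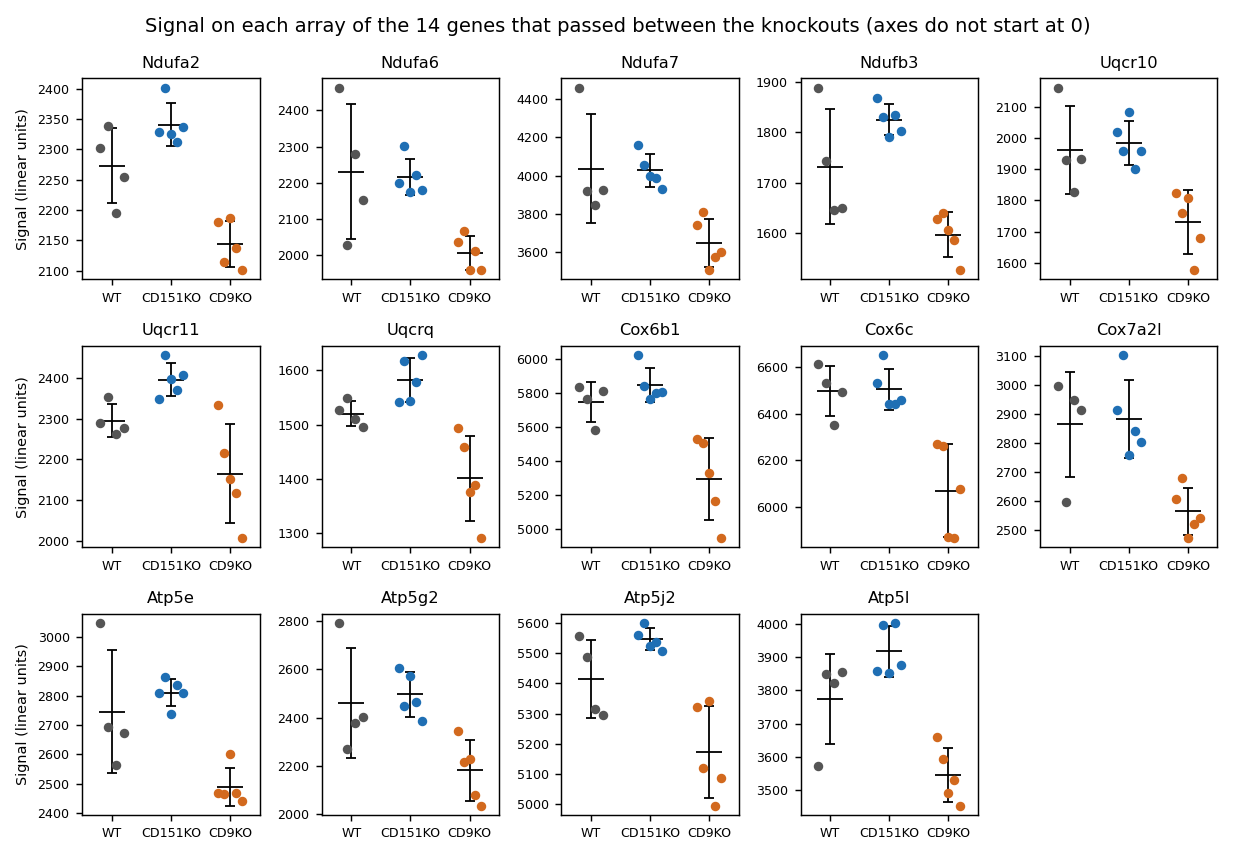
Signal on each array (points, linear units; axes do not start at 0) with group means and SDs (bars) for the 14 genes that passed between CD151KO and CD9KO. In every panel the CD151KO and CD9KO arrays do not overlap, while some wild-type arrays reach the CD9KO range, as in Atp5l.

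Members separated completely between the knockouts more often than they passed. For 26 of the 82 (31.7%) every CD151KO array was above every CD9KO array, where 6.55% of all genes did so, and no member had the reverse order, which 4.06% of genes had. All 14 passing genes were among them; the CD9KO mean was the lowest of the 3 in all 14 and the wild-type mean lay between the knockouts in 12. Against wild type, CD9KO was wholly lower for 9 members (11%, with 5.19% of all genes) and wholly higher for none (6.64% of all genes). The count of 14 depended on single arrays: it was 7 without CD151KO array 1 or CD9KO array 5, 8 without CD151KO array 2 or CD9KO array 4, 9 without CD9KO array 3, and 29 without wild-type array 1. When each gene's probe sets were averaged, those below the filter included, it was again 14, but 9 of them were the same genes: Atp5g2, Atp5j2, Cox6c, Uqcr10 and Uqcrq were lost, and Ndufb11, Ndufb2, Ndufb5, Ndufc2 and Ndufv2 were gained. Atp5e, Atp5l, Cox6b1, Ndufa2, Ndufb3 and Uqcr11 passed in all 26 alternatives computed for single genes. The signal of the BioB spike-in control was lowest in wild type (332 ± 16.4), with 387 ± 24.5 in CD151KO and 412 ± 39.97 in CD9KO. The 3′ to 5′ signal ratio of Gapdh, a measure of RNA integrity, was 0.851 ± 0.012, 0.869 ± 0.013 and 0.856 ± 0.022. Their part in the differences was not tested.

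By role, none of the 14 passing genes between the knockouts belonged to the catalytic core, though core genes passed under some alternatives. Grouping chosen after the values were seen put 15 tested members in the catalytic core and 59 in a class of accessory and other subunits. The core held the flavin, iron-sulfur and haem subunits of complexes I to III, Ndufs3 of complex I, and the F1 alpha, beta and gamma subunits. The other class also holds the epsilon and c subunits of ATP synthase. By limma 0 genes of the core passed, with 6 at an unadjusted p under 0.05. In the other class 14 passed, with 30 at that level. Of all genes 10.1% passed and 27.6% reached that level. Core genes that passed under alternatives were, for example, Ndufv2 with probe sets averaged. Without wild-type array 1, Atp5c1, Ndufs3, Ndufs8, Sdha, Sdhb and Sdhd also passed. Both other probe sets of Ndufv2 gave a log2 difference of 0.16. The median log2 differences of CD151KO minus CD9KO were 0.063 for the core and 0.078 for the other class, so the classes differed little in level of shift. The difference between the classes was not tested. In the core, 3 of 15 genes had every CD151KO array above every CD9KO array, and in the other class 23 of 59. Of all genes tested 6.55% did so.

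The promoters of 6 of the passing genes and of Cycs are shown as examples, which do not stand for the other passing genes. Each is the 150 bases before the annotated start, read 5′ to 3′ on the gene's strand, from RefSeq on the GRCm38.p6 build. Whether the passing genes share a regulator was not tested. Capitals mark a match to a motif of a factor known for respiratory chain genes, on either strand: ETS factors such as GABP (CCGGAAG), NRF1 (GCATGCGC) YY1 (AAGATGGC) or estrogen-related receptors (AAGGTCA). Ndufb3 (chr1:58586247-58586396, plus strand) has no such match in this stretch. Uqcr11 (chr10:80406822-80406971, minus strand), Cox6b1 (chr7:30626115-30626264, minus strand) and Atp5e (chr2:174464102-174464251, minus strand) carry the ETS motif. Atp5l (chr9:44920743-44920892, minus strand) carries the estrogen-related receptor motif, and Atp5g2 (chr15:102671048-102671197, minus strand) and Cycs (chr6:50566570-50566719, minus strand) the NRF1 motif, which in Atp5g2 matches on both strands in overlapping positions.
Ndufb3: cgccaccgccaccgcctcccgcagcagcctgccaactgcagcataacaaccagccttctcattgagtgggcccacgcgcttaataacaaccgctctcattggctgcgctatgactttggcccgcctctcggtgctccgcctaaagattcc
Uqcr11: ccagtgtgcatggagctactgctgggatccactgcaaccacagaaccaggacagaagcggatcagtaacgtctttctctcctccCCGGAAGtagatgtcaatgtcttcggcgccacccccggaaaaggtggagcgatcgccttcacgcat
Cox6b1: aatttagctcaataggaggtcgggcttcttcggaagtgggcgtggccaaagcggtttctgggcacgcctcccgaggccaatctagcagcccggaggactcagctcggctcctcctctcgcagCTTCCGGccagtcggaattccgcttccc
Atp5e: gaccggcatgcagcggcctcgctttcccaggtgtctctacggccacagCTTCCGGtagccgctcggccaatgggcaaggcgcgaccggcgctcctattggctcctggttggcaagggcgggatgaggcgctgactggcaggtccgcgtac
Atp5l: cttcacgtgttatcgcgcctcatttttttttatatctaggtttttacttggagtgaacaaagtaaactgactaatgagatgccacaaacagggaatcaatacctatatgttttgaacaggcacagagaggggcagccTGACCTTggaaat
Atp5g2: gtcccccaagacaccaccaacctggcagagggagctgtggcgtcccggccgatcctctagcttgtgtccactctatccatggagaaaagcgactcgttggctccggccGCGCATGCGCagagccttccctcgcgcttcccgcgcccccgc
Cycs: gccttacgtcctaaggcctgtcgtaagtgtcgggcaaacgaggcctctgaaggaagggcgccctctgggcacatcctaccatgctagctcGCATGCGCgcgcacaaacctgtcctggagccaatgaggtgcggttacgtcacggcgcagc

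Across windows from 250 bases before to 50 after the start, 66 of the 82 tested members and 11 of the 14 passing genes were found in the RefSeq promoter table of 27025 genes. The ETS motif was present in 25.8% of members and 9.93% of all promoters, the NRF1 motif in 15.2% and 3.05%, the YY1 motif in 13.6% and 3.19%, and the estrogen-related receptor motif in 10.6% and 5.38%. Among the 11 passing genes, 4 held the ETS motif, 4 the NRF1 motif, 1 the YY1 motif and 2 the estrogen-related receptor motif. Ndufb3, and also Cox7a2l, Ndufa7 and Uqcr10, whose promoters are not shown, held none of these motifs. A match describes these letters and no more, and the factors' binding was not measured.

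Cycs, the mobile electron carrier between complexes III and IV, ran against the set. Its signals were 3307, 3569, 3594 and 3571 in wild type, 3187, 3491, 3579, 3745 and 3860 in CD151KO, and 3952, 3515, 4249, 4310 and 3940 in CD9KO. The CD9KO arrays were the highest except number 2, and the groups overlapped. CD9KO minus wild type was 0.18 on the log2 scale (SE 0.06; limma adjusted p = 0.082, or 0.035 without CD9KO array 2) and CD151KO minus CD9KO was −0.16 (SE 0.06; limma adjusted p = 0.089, or 0.026 without that array). The call did not pass with all arrays.

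The isoform pairs of complex IV put a tissue-restricted gene beside a ubiquitous partner. Cox7a1, the heart and muscle isoform of subunit 7a, had signals of 115, 155, 150 and 121 in wild type, 131, 127, 162, 133 and 169 in CD151KO, and 194, 176, 217, 171 and 139 in CD9KO. CD9KO was higher on most arrays, though number 5 lay within the wild-type range, and CD9KO minus wild type was 0.37 (SE 0.12; limma adjusted p = 0.073). Its partner Cox7a2 had 6212 ± 362, 6183 ± 153 and 5938 ± 158 in wild type, CD151KO and CD9KO, and did not pass. Cox6a2, the muscle isoform of subunit 6a, had 470 ± 23.6, 541 ± 45.4 and 507 ± 49.8, a log2 difference of 0.20 for CD151KO minus wild type (SE 0.07; limma adjusted p = 0.295). Cox8b, the muscle isoform of subunit 8, had 199 ± 17.6, 229 ± 27.3 and 228 ± 35.3. Cox4i2, Cox6b2 and Ndufa4l2 had differences of at most 0.17 on the log2 scale in any comparison and did not pass.

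Of the markers of heart muscle, which lines the pulmonary veins in mouse lung, 2 of 13 passed between CD9KO and wild type (5.51% of all genes) and 2 between the knockouts (10.1%). All 13 cardiac markers were measured, their mean log2 level ran from 8.78 to 8.98 in wild type, 8.74 to 9.36 in CD151KO and 8.95 to 9.49 in CD9KO, and none was at 0. Their median log2 difference was 0.41 for CD9KO minus wild type, with 12 of 13 above 0, and −0.28 for CD151KO minus CD9KO. For CD151KO minus wild type it was 0.14, with all 13 above 0 and 0 passing by limma. An unadjusted limma p under 0.05 was reached by 9 of the 13 in CD9KO against wild type (25.4% of all genes). Between the knockouts 6 of the 13 reached that level (27.6% of all genes). Myh6, the atrial myosin heavy chain, and Actn2, alpha-actinin of the sarcomere, were higher in CD9KO than in wild type (log2 0.72 and 0.49; limma adjusted p = 0.028 for both), and lower in CD151KO than in CD9KO (log2 −0.56 and −0.38; limma adjusted p = 0.039 and 0.040). With the mean of its probe sets Myh6 was 0.38 higher in CD9KO than in wild type, and with no filter Actn2 was lost between the knockouts (0.0504). Without single arrays, the number of cardiac markers that passed ran from 0 to 5 in CD9KO against wild type and in CD151KO against CD9KO. It was 0 for CD9KO against wild type without wild-type array 1 or 3 or CD9KO array 3. For CD151KO against CD9KO it was 0 without CD151KO array 1, 2 or 4 or CD9KO array 1, 2 or 3. Skeletal muscle markers varied in level. The myosin genes Myh1, Myh2 and Myh4 had signals between 9.31 and 13.6, but Acta1 ran from 47.5 to 92.5 and Ckm from 110 to 178. Of the 10 listed, 4 were tested. Their median log2 difference for CD9KO minus wild type was 0.13, with 2 above 0 and 2 below. By limma 2 of the 4 had an unadjusted p under 0.05 (25.4% of all genes). Between the knockouts, no tested marker of lung epithelium, skeletal muscle, brown fat, fat, erythroid cells or B cells passed with limma. In the first list 2 and in the second 1 had an unadjusted p under 0.05. Few genes were tested in some of these lists, and their medians were not all near 0. CD151KO minus CD9KO had a median log2 difference of 0.37 over 4 B cell markers, with 4 above 0. Over 2 erythroid markers it was −0.33, with 2 below 0. The part of cardiac muscle RNA in the levels of Cox7a1, Cox6a2, Cox8b and Cycs was not tested.

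**Figure D4:**
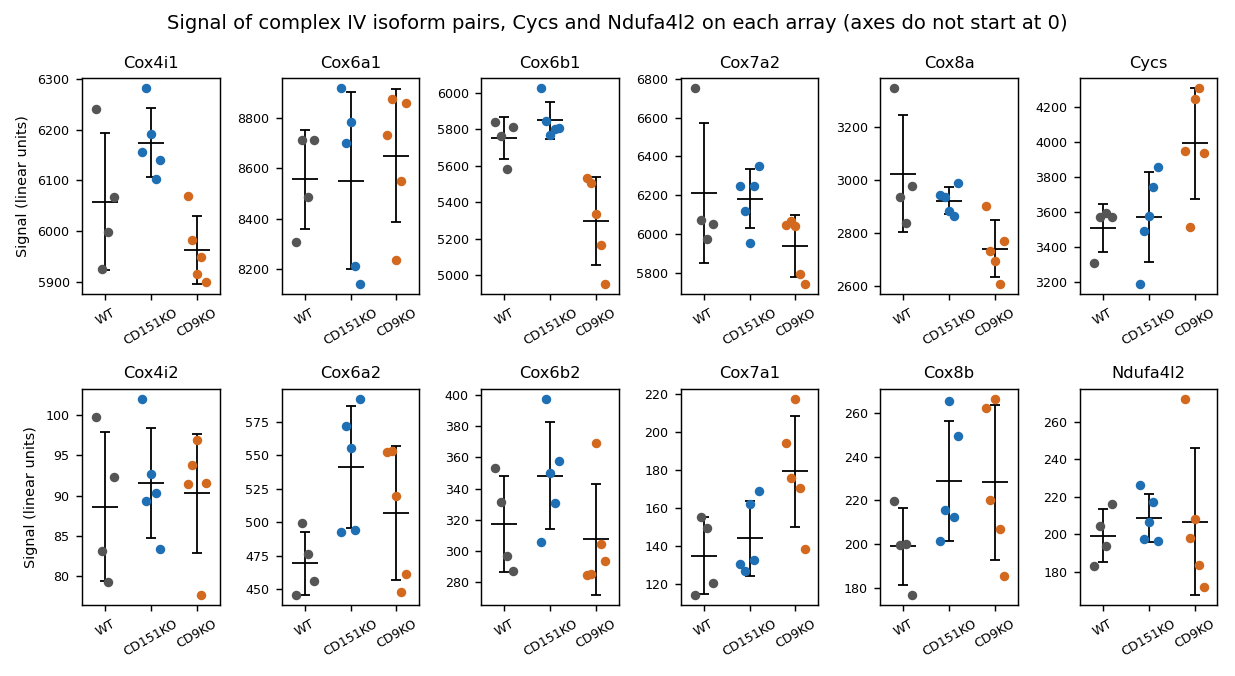
Signal on each array (points, linear units; axes do not start at 0) with group means and SDs (bars) for complex IV isoforms, Cycs and Ndufa4l2. Cox7a1 and Cycs have their highest group mean in CD9KO, 179 ± 29.2 and 3993 ± 316, while Cox6b1 has its lowest there.

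CD151KO and wild-type lung differed little in these genes. With limma, 0 of 82 members passed and 6 had an unadjusted p under 0.05, all higher in CD151KO, where 11.1% of all genes reached that level and 6.72% did so as higher. The differences ran from −0.15 to 0.20 on the log2 scale. The groups did not overlap for Ndufa4 and Ndufc2 (2.44% of members; 4.54% of all genes). Ndufa4, named after complex I but now placed in complex IV, had 3501, 3402, 3230 and 3332 in wild type and 3560, 3585, 3543, 3529 and 3641 in CD151KO; the highest wild-type array was below the lowest CD151KO array, and the log2 difference was 0.09 (SE 0.03; limma adjusted p = 0.33). Ndufc2, an accessory subunit of complex I, had 5523 ± 160 and 5815 ± 116 (log2 0.07, SE 0.03; limma adjusted p = 0.34). Cox5a, a matrix-side subunit of complex IV, had 3568 ± 192 and 3778 ± 94.5 (log2 0.08, SE 0.04; limma adjusted p = 0.42), and leaving out single arrays gave no passing member. For 76 of the 82 members the 95% interval of this difference lay within 0.25 of 0 on the log2 scale.

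CD9KO against wild type gave more members near the threshold than past it. With an unadjusted p under 0.05 there were 27 members, 25 lower and 2 higher in CD9KO (Cycs and Cox7a1), where 25.4% of all genes reached that level, 12.1% lower and 13.3% higher. The adjusted p of Cox6c was 0.0503, of Uqcr10 0.054, of Ndufa7 0.054, of Cox7a2l 0.055 and of Atp5e 0.062, all with CD9KO below wild type. Leaving out 1 array brought several past the threshold: Cox6c without CD9KO array 1 (0.040) or 2 (0.045), Uqcr10 without CD9KO array 1 (0.047) or wild-type array 4 (0.046), Cox7a2l without wild-type array 3 (0.042) or CD151KO array 2 (0.047), Atp5e without wild-type array 4 (0.046) and Ndufa7 without CD9KO array 2 (0.0495). The count of passing members was 4 without CD9KO array 1 or 2, 3 without wild-type array 4, 2 without wild-type array 3, and 0 without CD151KO array 3, 4 or 5 or CD9KO array 3, 4 or 5.

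Genes that build or feed the chain were examined from lists, whose counts stand against 10.1% of all genes passing between the knockouts and 5.51% between CD9KO and wild type. Of the mitochondrially encoded subunits only ND5 was measured, with log2 levels of 13.8 ± 0.11 in wild type, 13.7 ± 0.036 in CD151KO and also 13.7 ± 0.041 in CD9KO, and the knockouts differed by 0.01 (limma adjusted p = 0.92). The lists of assembly factors had smaller medians than the subunits: the median log2 difference of CD151KO minus CD9KO was −0.035 over 15 factors of complex I, −0.00041 over 9 of complexes II and III, 0.030 over 19 of complex IV and 0.014 over 4 of complex V. An unadjusted p under 0.05 was reached by 4, 2, 9 and 1 of them, in either direction (27.6% of all genes). Cox16, Coa3 and Cox20, which take part in building cytochrome c oxidase, were higher in CD151KO (log2 0.22, 0.19 and 0.21; limma adjusted p = 0.0032, 0.0098 and 0.026), and 4 of 19 genes of that list passed, or 2 without CD151KO array 1 or CD9KO array 4 or 5; Cox20 was also lost without CD9KO array 2 (0.051). With probe sets averaged 2 of the list passed; Cox16 fell to a log2 difference of 0.06 (limma adjusted p = 0.34) and Cox20 to 0.11 (0.054). Nubpl, which delivers iron-sulfur clusters to complex I, was higher in CD151KO than in CD9KO (log2 0.30; limma adjusted p = 0.0054) and lower in CD9KO than in wild type (−0.43; 0.0051), and 4 complex I factors passed without wild-type array 1. Sdhaf4, an assembly factor of succinate dehydrogenase, was higher in CD151KO than in CD9KO (log2 0.24; limma adjusted p = 0.0075).

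In upstream metabolism, the fatty acid oxidation list had a median like that of the subunits, and the citric acid cycle list had 1 passing gene. Of 18 genes of the citric acid cycle and pyruvate dehydrogenase, Idh2, the mitochondrial isocitrate dehydrogenase, passed between the knockouts (log2 0.13; limma adjusted p = 0.038, and 0.065 to 0.097 without CD151KO array 1, 3, 4 or 5 or CD9KO array 1, 3 or 5), and the median was 0.007. With the mean of its probe sets Idh2 had a log2 difference of 0.03 (0.63), and with median centring the call was lost (0.0501). Of 16 genes of mitochondrial fatty acid oxidation the median was 0.071, with 12 above 0. For CD9KO minus wild type it was −0.078, with 10 below 0, 6 above and 8 at an unadjusted p under 0.05 (25.4% of all genes). Between the knockouts, Echs1, Acads and Hadh were higher in CD151KO (log2 0.27, 0.18 and 0.30; limma adjusted p = 0.0087, 0.017 and 0.031) and Cpt1a, which imports long-chain acyl groups, was lower (−0.28; 0.043). Without CD151KO array 1, 2 or 3 or CD9KO array 4 or 5, 2 genes of that list passed, and Cpt1a was lost without any of these, CD9KO array 1, 2 or 3, or wild-type array 3, 4 or 5 (0.052 to 0.092), and with median centring, no filter, only the compared groups or array weights (0.05001 to 0.062). Hadh was also lower in CD9KO than in wild type (log2 −0.36; limma adjusted p = 0.031, and 0.051 to 0.078 without CD9KO array 3, 4 or 5 or wild-type array 1 or 3, and 0.059 with only the compared groups). None of 17 regulators of mitochondrial biogenesis and none of 9 uncoupling, carrier and channel genes passed in any comparison with limma; between the knockouts 4 and 2 of them had an unadjusted p under 0.05 (27.6% of all genes), and their smallest adjusted p between the knockouts were those of Tfb2m (−0.12; 0.083) and Ckmt1 (0.20; 0.065).

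A list of 40 cytosolic ribosomal proteins, added after the values were seen, had a similar shift. Its median was 0.050 for CD151KO minus CD9KO, with 35 genes above 0, and −0.048 for CD9KO minus wild type, with 34 below 0. Rpl11, Rps26, Rps14 and Rps18 were higher in CD151KO than in CD9KO (log2 0.11 to 0.14; limma adjusted p = 0.0074 to 0.032), 4 of 40 where 10.1% of all genes passed and 5.99% as higher. This count was 2 without CD151KO array 1 or 3 or CD9KO array 3 or 4, 2 with no filter or no trend, and 8 without wild-type array 1. In CD9KO against wild type 3 ribosomal genes passed as lower (2.63% of all genes); 1 did with median centring or no filter, and none without wild-type array 1 or CD9KO array 4 or 5, with only the compared groups or with no trend.

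**Figure D5:**
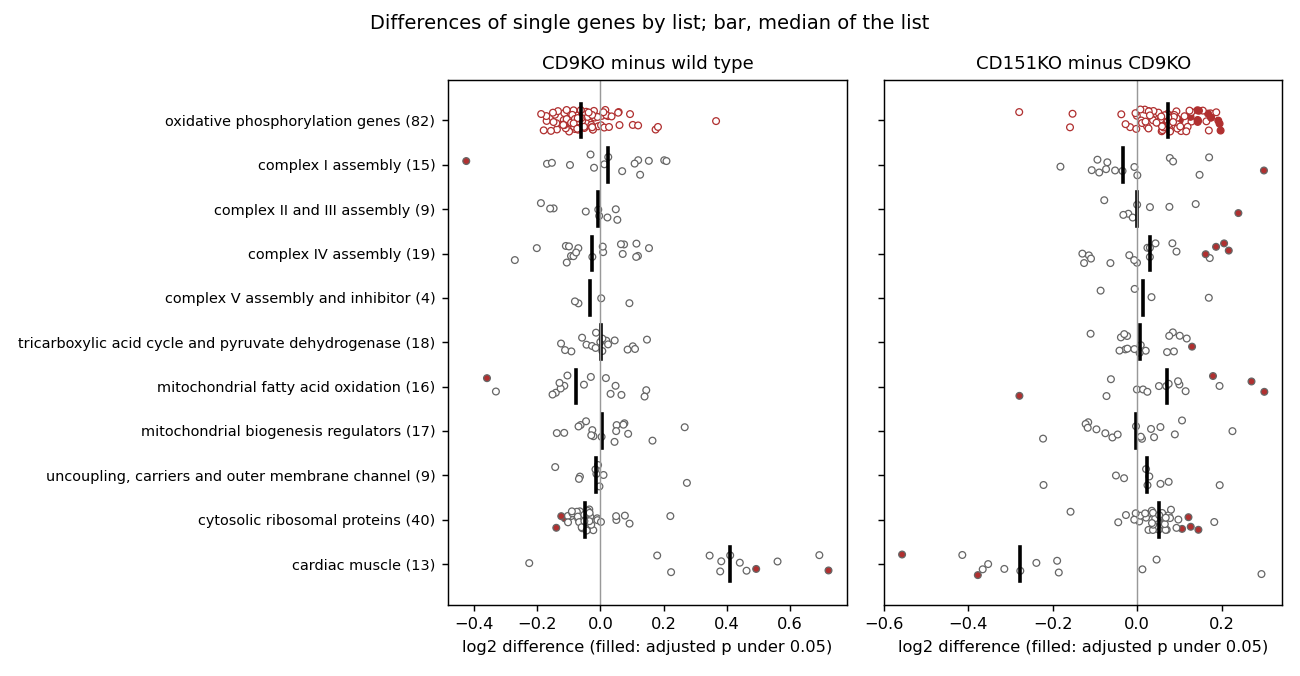
Log2 differences of single genes (points; filled, adjusted p under 0.05) for the subunits and other lists, in CD9KO minus wild type (left) and CD151KO minus CD9KO (right); black bars are medians. The subunits have medians of −0.063 and 0.072, the ribosomal proteins −0.048 and 0.050, and the cardiac muscle markers 0.41 and −0.28.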

How the data were processed

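Total RNA of 14 mouse lung samples was labelled with biotin and hybridised to Affymetrix arrays, per the labels' protocols. The authors deposited normalized probe set intensities on a linear scale, from 4.78 to 29667 over 45101 probe sets; the submitters' processing notes name Affymetrix Expression Console and MAS5, and for probe summary and scaling the method was not given in the sources used here. No further scaling was applied. Genes were named from the platform annotation, and all 174 member probe sets were checked against RefSeq by Entrez identifier, with 0 symbols differing; probe sets with several symbols were left out. For each gene the probe set with the highest mean was kept, and genes under the 40th percentile of log2(intensity + 16) were removed. Differences were fitted with limma 3.58.1 in R 4.3.3 (lmFit, eBayes with a trend, 3 groups, 11 residual degrees of freedom), and the number of arrays limits the precision: the median residual SD was 0.088 over all genes and 0.062 over the members. On simulated data for CD151KO against CD9KO, with 12985 genes, log2 changes of 0.1 were recovered for 4.8% of the altered genes, of 0.2 for 34.8% and of 0.4 for 89.6%, with false calls at 5.32%. Figures and promoter searches used Python 3.11.15 and matplotlib 3.10.9. Promoter sequences are RefSeq's on GRCm38.p6; no genome was used.

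The members and gene lists were chosen with earlier results of these data known, so they are no independent support. Named genes were every member that passed, the members of each complex with the smallest p in each comparison, the isoform pairs and Cycs, and up to 3 passing genes per direction of each other list; a gene named for another reason, the ribosomal list, the core and accessory classes and the motifs were chosen after the values were seen. Replicate numbers are shared by the groups, but no label says that they pair samples, so the block was used only as an alternative. Of 13 same-numbered pairs, 6 correlated above 0.1 (−0.13 to 0.59), and pairs with other numbers ran from −0.49 to 0.39. These correlations do not settle whether the samples were paired. Alternatives were other pseudocounts, scalings, filters, probe set rules, fits and arrays left out.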

Additional observations from a re-analysis of the deposited data

Results flagged for a closer look

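In 111 tests of an extreme array within a group, over the 3 groups, the named members and the mean levels of the complexes and of the whole set, 9 signals lay far from the others by Dixon's criterion, and chance gives about 1 in 20. On wild-type array 1, Atp5l was 3574 (others 3820 to 3854), Cycs was 3307 (3569 to 3594), Cox7a2 was 6752 (5973 to 6073) and Ndufa7 was 4459 (3844 to 3923), so Atp5l and Cycs were low where Cox7a2 and Ndufa7 were high. In CD151KO, Cox5a was 3613 on array 1 (others 3786 to 3835) and Ndufa2 was 2402 on array 2 (2312 to 2337). In CD9KO, Atp5e was 2601 on array 3 (others 2442 to 2468), Cox6b2 was 369 on array 3 (284 to 305) and Cox4i2 was 77.7 on array 4 (91.5 to 96.9).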

How the results depend on the processing

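Over the alternatives no result that passed turned its direction; of 3660 recomputed single-gene differences, 103, from 33 results, lay on the other side of 0, and 0 of these passed before or after by limma (sizes up to 0.10 before and 0.07 after on the log2 scale). None of the 75 recomputed medians of the set moved by more than the SD between arrays. This limit was 0.050 for the wild-type comparisons, the SD of the wild-type arrays with number 1 included, and 0.037 between the knockouts. The limit was nearly as large as the median of CD9KO minus wild type (−0.063) and exceeded that of CD151KO minus wild type (0.017). It therefore cannot show that these medians held. Without wild-type array 1 they were −0.033 and 0.043. Without single arrays the median was 0.062 to 0.088 for CD151KO minus CD9KO and −0.078 to −0.033 for CD9KO minus wild type. It was 0.003 to 0.043 for CD151KO minus wild type. With array weights the medians, in the same order, were 0.067, −0.026 and 0.040. With probe sets averaged they were 0.059, −0.050 and 0.018. For CD151KO against CD9KO, 14 members passed; the count was 22 with the replicate number as a block, 21 with only the compared groups in the fit, 19 without both arrays numbered 1, 19 with every probe set tested, 18 with array weights, 17 with the higher filter, 14 with probe sets averaged (9 of them the same genes), 13 with quantile normalization, median centring or no filter, 11 with no trend, and 7 to 29 without single arrays. For CD9KO against wild type, where 1 passed, it was 0 with quantile normalization, with median centring, with no filter, with only the compared groups and with no trend; 4 with every probe set tested, 5 with array weights, 6 with a filter at the 60th percentile, 13 with the replicate block, and 0 to 4 without single arrays. For CD151KO against wild type it was 0 in all settings. The shared numbers were not taken as pairs, since no label says so. Of the 14 arrays, 6 correlated best with an array of their own number, which leaves pairing undecided. Over all genes, the count without single arrays was 682 to 1939 for CD151KO against CD9KO (1313 with all), 158 to 866 for CD9KO against wild type (715) and 24 to 98 for CD151KO against wild type (101). Of those single-gene differences, 191 lost the threshold and 55 gained it; the cause was not tested. Probe set signals give no depth, and the 2 dim members, Cox7b2 and Ndufb4, could not be tested.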
